A study of Mus musculus with 6 samples.

Results

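The enzymes that make, use and recycle glutathione, together with the superoxide dismutases, catalase, the peroxiredoxins and the thioredoxin system, were examined in brown adipose tissue (BAT) of mice with and without miR-22. Genes were chosen by symbol: the numbered *Gsta*, *Gstm*, *Gstp*, *Gstt*, *Gsto*, *Gstk*, *Gstz*, *Gpx*, *Prdx* and *Sod* genes, and *Mgst1*, *Mgst2*, *Mgst3*, *Gclc*, *Gclm*, *Gss*, *Gsr*, *Txn1*, *Txn2*, *Txnrd1*, *Txnrd2*, *Cat*, *Nqo1*, *Hmox1* and *Srxn1*. The array had a probe for 53 of them among 23462 genes, and *Gsta1* had no matched probe. The WT group held 3 wildtype male mice and the KO group 3 male mice with a miR-22 knockout, all 8 weeks old. The knockout is a constitutive one, not restricted to brown adipocytes, and no agent that sets the groups apart is named for these mice. RNA was taken from whole BAT, in which fewer cells of a type and less RNA per cell cannot be told apart. One mouse was measured per single-dye Agilent array, and WT1 to WT3 and KO1 to KO3 name the mice of each group.

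Glutathione is a small thiol peptide, and the rate-limiting step of its synthesis is catalysed by glutamate-cysteine ligase, built from a catalytic subunit (*Gclc*) and a modifier subunit (*Gclm*). Glutathione peroxidases and glutathione S-transferases spend it on peroxides and on reactive lipids or xenobiotics, glutathione reductase (*Gsr*) returns it to its reduced form, and the thioredoxin system does the same for the peroxiredoxins. Many of these genes are targets of the transcription factor NRF2, encoded by *Nfe2l2*, which KEAP1 holds at low levels in unstressed cells. Brown adipocytes are rich in mitochondria, whose respiratory chain is a known source of superoxide.

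miR-22 is the molecule that separates the groups, and its mature arms are shown with the seed, bases 2 to 8, in capitals. The sequences are those of RefSeq on GRCm38.p6, at chr11:75463772-75463793 for the 3p arm and chr11:75463734-75463755 for the 5p arm, both on the plus strand.
mmu-miR-22-3p: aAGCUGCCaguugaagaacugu
mmu-miR-22-5p: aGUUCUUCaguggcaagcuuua
The seeds of the arms differ, and no probe of the array was matched to either arm. The transcript of their host gene, *Mir22hg*, had log2 signals, on the scale given next, of 1.20, 1.69 and 1.22 in WT mice and 2.02, 2.11 and 2.23 in KO mice, so the array does not show the loss of miR-22 itself.

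Values are log2 signals relative to the 75th percentile of each array, so that 0 is the signal of that percentile, and a difference is KO minus WT on that log2 scale. Between 55.8% (KO1) and 66.5% (WT1) of spots were well above background. The scanner software marked between 4.87% (WT1) and 17.1% (WT3) of spots as outliers, and marked spots were left out unless stated. These spots were mostly bright: among the brightest of 4 equal bins of probes 51.3% were marked in WT3 and 42.2% in KO1, against 12.6 to 17.1% in the other 4 arrays. For the values of cell type markers, here and below, marked spots were kept. The mean of 20 skeletal muscle genes was lowest in WT3 at -4.53 and highest in KO2 at 3.39. The brown adipocyte markers were present in all mice, with a log2 signal of *Ucp1* between 5.0 and 5.85.

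Of the 53 genes, 33 could be tested, 17 more could be tested only when marked spots were kept, and *Gpx5*, *Gpx6* and *Gstp3* were well above background on fewer than 3 arrays. *Gpx5* was detected in 1 KO mouse, *Gstp3* in 1 WT mouse and *Gpx6* in none. Of the 33 tested genes, *Sod3*, *Txnrd2*, *Gclm* and *Hmox1* were lower in KO mice and *Gstt4* was higher by limma at an unadjusted threshold of 0.05, and passing refers to that threshold below. These 4 and 1 genes are 12.1% and 3.03% of the genes tested, beside 8.82% lower and 10% higher among all 14711 genes. After Benjamini-Hochberg adjustment over all genes none of the 33 was below 0.05, the smallest adjusted p from limma being 0.128 (*Gstt4*), and 0.184% of all genes were. Normexp background correction followed by quantile normalization turned the split to 1 lower and 2 higher, and the share of all genes was not counted there.

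The superoxide dismutases and catalase had differences below 0, those of *Sod2* and *Cat* being measured only with marked spots kept. *Sod3* encodes the extracellular superoxide dismutase, and its log2 signals were 2.97, 3.07 and 2.92 in WT mice and 2.48, 2.42 and 2.62 in KO mice. All 3 KO mice lay below all 3 WT mice. The difference was -0.48 (standard error 0.13, adjusted p = 0.138, limma), a fold of 0.715. After quantile normalization it was -0.30 and passed again, and after normexp -0.27, which did not. *Sod3* also passed with each single array left out. *Sod1*, the cytosolic enzyme and the brightest of these genes among those tested, had log2 signals of 4.33, 4.78 and 4.46 in WT mice and 4.04, 4.01 and 4.43 in KO mice. The highest KO mouse, KO3, overlapped the WT mice, and the difference of -0.36 (standard error 0.19) did not pass (adjusted p = 0.344, limma), but did when KO3 was left out (-0.50). It was -0.23 without WT2, -0.09 after quantile normalization and -0.10 after normexp, none of which passed.

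**Figure D1:**
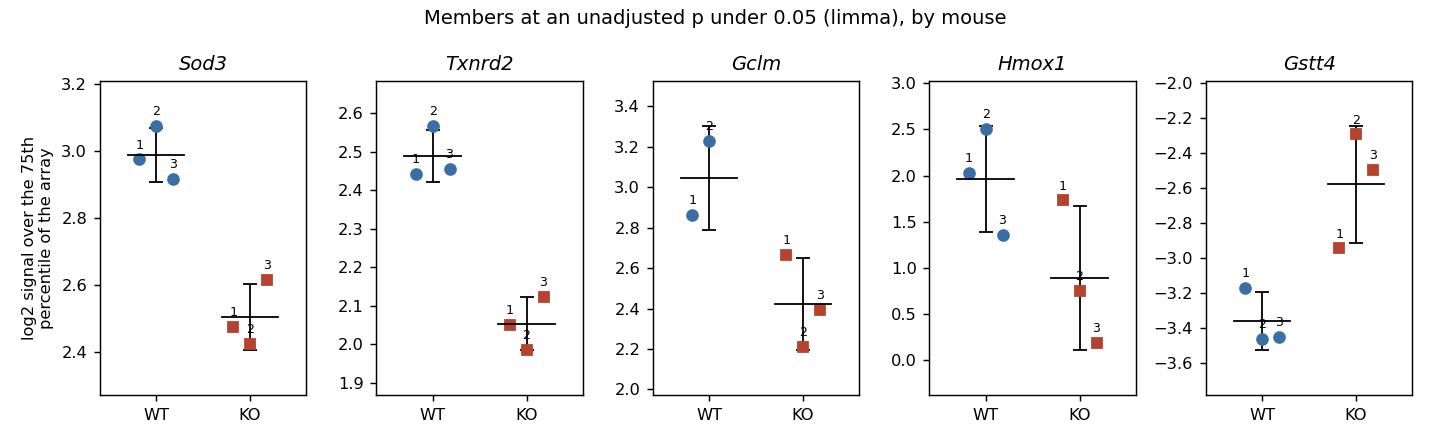
Log2 signal over the 75th percentile of the array (vertical axis, a separate range for each gene) of the 5 genes that passed limma's unadjusted threshold, in WT mice (circles) and KO mice (squares), numbered by mouse. Lines are means and bars are SD of the unmarked values. *Sod3*, *Txnrd2* and *Gstt4* do not overlap between the groups, *Hmox1* does, and *Gclm* has no unmarked value for WT3.

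Catalase and the mitochondrial superoxide dismutase were bright genes with marked spots, so they had a value in every mouse only when those were kept. They are described here after their values were seen. *Cat*, the peroxisomal enzyme that splits hydrogen peroxide, had log2 signals of 3.54, 3.77 and 3.39 in WT mice and 3.14, 2.92 and 3.09 in KO mice, with marked spots in WT1, WT3, KO1 and KO2. The groups did not overlap, and the difference was -0.52 (standard error 0.15, adjusted p = 0.144, limma). Quantile normalization reduced it to -0.29, which did not pass. *Sod2* had log2 signals of 3.61, 4.05 and 3.73 in WT mice and 2.23, 3.30 and 3.52 in KO mice, where KO1 and KO2 were marked. The difference of -0.78 (standard error 0.34) did not pass (adjusted p = 0.254, limma), and KO1 lay furthest from the other mice. In this setting all 4 genes of the group had a difference below 0, the median was -0.50, and *Cat* and *Sod3* passed; with quantile normalization the median was -0.30 and *Sod3* alone passed.

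Among the genes of glutathione synthesis and recycling, the modifier subunit moved furthest. *Gclm* had log2 signals of 2.86 and 3.23 in WT1 and WT2 and of 2.67, 2.21 and 2.39 in KO mice, and its spot was marked in WT3 and dropped from the fit. The difference was -0.62 (standard error 0.21, adjusted p = 0.209, limma), a fold of 0.649. With the marked WT3 value of 3.07 kept, all KO mice lay below all WT mice and the difference was -0.63 (standard error 0.17, adjusted p = 0.13, limma). Quantile normalization gave -0.40 without marked spots, which did not pass, and -0.44 with them, which did. Leaving out KO2 (-0.52) or KO3 (-0.61) lost the call. The catalytic subunit *Gclc* had a log2 difference of -0.16 with marked spots kept, the synthetase *Gss* of -0.14 and the reductase *Gsr* of -0.24, none of which passed. Their KO and WT mice overlapped. The other probe of *Gss* had a difference of 0.05, opposite in sign.

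The window around the start of *Gclm*, from 250 bases before to 50 bases after it, is shown because it holds a match to the core of the antioxidant response element to which NRF2 binds. The letters searched were TGACNNNGC on both strands, and the match, in capitals, lies on the strand opposite to the gene and begins at position -134 relative to the start. The window is RefSeq's on GRCm38.p6, chr3:122245307-122245606, plus strand, and 79.7% of its bases are G or C.
Gclm: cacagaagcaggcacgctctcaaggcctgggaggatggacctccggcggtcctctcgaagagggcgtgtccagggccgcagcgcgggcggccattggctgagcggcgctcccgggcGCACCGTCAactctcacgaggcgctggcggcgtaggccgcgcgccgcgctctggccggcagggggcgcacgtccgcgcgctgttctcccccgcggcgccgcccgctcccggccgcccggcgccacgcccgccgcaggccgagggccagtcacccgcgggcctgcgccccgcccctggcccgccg
Of the 53 genes, 46 had a window in the table used, and 9 of these (19.6%) held the letters, beside 14.0% of all 27025 genes. Counted by window, the shares were 15.0% and 12.4%. The 9 matches are shown with 10 bases on either side and the match in capitals, as read along the strand of the gene.
Gclm: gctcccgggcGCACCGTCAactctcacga
Gsta3: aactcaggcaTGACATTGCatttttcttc
Gstm5: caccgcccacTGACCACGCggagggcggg
Gstm7: tctgaagaccTGACAAAGCgaagccaatc
Mgst1: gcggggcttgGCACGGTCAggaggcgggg
Prdx1: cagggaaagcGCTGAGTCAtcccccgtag
Sod1: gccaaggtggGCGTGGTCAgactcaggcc
Srxn1: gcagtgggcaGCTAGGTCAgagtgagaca
Txnrd1: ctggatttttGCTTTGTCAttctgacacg
The match of *Prdx1* overlaps the AP-1 motif. Of the 5 genes past the unadjusted threshold, *Gclm* held a match, the windows of *Txnrd2* and *Gstt4* held none, and *Hmox1* and *Sod3* had no window in the table, like *Gclc*, *Gsr*, *Gsta4*, *Gstt2* and *Prdx6*.

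The transcript of NRF2 itself did not pass in either direction. *Nfe2l2* had log2 signals of -1.35, -1.25 and -1.27 in WT mice and -1.05, -1.26 and -0.75 in KO mice. The difference of 0.27 (standard error 0.17) did not pass (adjusted p = 0.407, limma), and it was -0.31 when marked spots were kept, which brings in a brighter probe. *Keap1*, which encodes its repressor, had log2 signals of 1.93, 2.21 and 2.23 in WT mice and 1.94, 1.90 and 2.01 in KO mice, a difference of -0.17 (standard error 0.14, adjusted p = 0.536, limma). Both genes overlapped between the groups.

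*Hmox1*, the inducible heme oxygenase, had the largest difference of the 33 genes and a wide spread within both groups. Its log2 signals were 2.03, 2.5 and 1.36 in WT mice and 1.73, 0.75 and 0.19 in KO mice. KO1 lay above WT3, so the groups overlapped. The difference was -1.07 (standard error 0.44, adjusted p = 0.257, limma), a fold of 0.475, and after quantile normalization it was -0.96 and did not pass. Against WT3, the WT array that shares its row of the slide with the KO arrays, the difference was -0.47 and did not pass. The call was also lost when WT1 (-1.04), WT2 (-0.80), KO2 (-1.0) or KO3 (-0.72) was left out. *Nqo1*, the quinone reductase and another gene often read as an NRF2 target, was dim: its log2 signal lay between -4.71 and -3.76 in all mice, the difference was 0.30 (standard error 0.23, adjusted p = 0.508, limma), and the groups overlapped.

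In the thioredoxin system, the mitochondrial reductase *Txnrd2* was lower in KO mice. Its log2 signals were 2.44, 2.57 and 2.46 in WT mice and 2.05, 1.99 and 2.12 in KO mice, with no overlap and the smallest spread of the 5 genes that passed. The difference was -0.44 (standard error 0.13, adjusted p = 0.152, limma), a fold of 0.740. It was -0.28 after quantile normalization and passed again, as it did with each single array left out. Its other, dimmer probe had a difference of -0.19 that did not pass when probes were tested singly, and the mean of the probes (-0.32) did not pass either. The start of *Txnrd2* is shown for comparison with that of *Gclm*. It lies at chr16:18426167-18426466 on the plus strand of GRCm38.p6, has 67.0% G and C and holds no match to TGACNNNGC.
Txnrd2: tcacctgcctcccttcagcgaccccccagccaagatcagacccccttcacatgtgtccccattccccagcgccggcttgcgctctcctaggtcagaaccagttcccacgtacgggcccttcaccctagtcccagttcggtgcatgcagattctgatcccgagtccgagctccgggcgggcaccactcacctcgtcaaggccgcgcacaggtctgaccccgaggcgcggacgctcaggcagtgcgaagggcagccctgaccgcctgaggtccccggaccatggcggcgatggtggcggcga

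The peroxiredoxins reduce peroxides at a cysteine that thioredoxin restores, and their spots were bright in these arrays. *Prdx1*, the cytosolic enzyme, had log2 signals of 5.24 and 4.95 in WT2 and WT3 and of 4.57, 4.55 and 4.90 in KO mice, with WT1 marked and dropped. The difference of -0.42 (standard error 0.19) did not pass (adjusted p = 0.311, limma) and was -0.05 after quantile normalization. It passed without KO3 (-0.53), and was -0.22 without WT3, which did not pass. With the marked spots included, all 11 genes of the group (6 peroxiredoxins, *Txn1*, *Txn2*, *Txnrd1*, *Txnrd2* and the sulfiredoxin *Srxn1*) had a difference below 0, from -0.44 for *Txnrd2* to -0.02 for *Prdx4*, with a median of -0.27. With quantile normalization as well, 5 of the 11 were below 0 and the median was 0.00. *Txnrd2* alone passed the test in either setting. *Txnrd1* had probes that differed in sign: the brighter, marked in 5 mice, gave -0.27 and the dimmer, unmarked, gave 0.34 (standard error 0.29), neither of which passed.

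Of 6 glutathione peroxidases measured with marked spots kept, 4 had a difference below 0 and 2 above. *Gpx2*, known best from the gut, was dim, with log2 signals of -3.50, -3.49 and -3.80 in WT mice and -3.45, -3.24 and -3.27 in KO mice. All KO mice lay above all WT mice, but the difference of 0.28 (standard error 0.15) did not pass (adjusted p = 0.367, limma). After quantile normalization the groups overlapped and the difference was 0.10, and after normexp it was 0.04. *Gpx7*, an enzyme of the endoplasmic reticulum, had log2 signals of 0.28 and 0.22 in WT1 and WT2 and 0.43 and 0.04 in KO2 and KO3, a difference of -0.01 (standard error 0.21, WT3 and KO1 dropped). *Gpx1*, the main cytosolic peroxidase, was testable only with marked spots and is named after its values were seen. Its log2 signals were 4.73, 5.02 and 4.81 in WT mice and 4.52, 4.50 and 4.59 in KO mice, with no overlap, and the difference of -0.32 (standard error 0.13, adjusted p = 0.24, limma) passed but was -0.03 with quantile normalization. *Gpx4*, which reduces phospholipid hydroperoxides, had log2 signals of 5.02 to 5.89 with marked spots kept and a difference of -0.33 that did not pass, or -0.01 with quantile normalization. *Gpx8*, also named after its values were seen, had log2 signals of 0.48, 0.42 and 0.00 in WT mice and 0.53, 0.90 and 0.53 in KO mice. Its spots in WT3, KO1 and KO3 were marked. The difference of 0.35 (standard error 0.19) did not pass. Against WT3 alone, itself a marked value, the difference of *Gpx8* was 0.65.

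Glutathione S-transferases make up 24 of the 53 genes, the membrane-bound enzymes included, and *Gstt4* was the single one that passed when marked spots were left out. *Gstt4* had log2 signals of -3.17, -3.46 and -3.45 in WT mice and -2.95, -2.29 and -2.5 in KO mice, all KO mice above all WT mice. The difference was 0.78 (standard error 0.20, adjusted p = 0.128, limma), a fold of 1.72. It was 0.64 after quantile normalization and 0.87 with the slide row as a block, and it passed in all 21 alternatives that were run. The start of *Gstt4* lies on the minus strand at chr10:75822494-75822793 of GRCm38.p6, has 52.0% G and C and holds no match to TGACNNNGC.
Gstt4: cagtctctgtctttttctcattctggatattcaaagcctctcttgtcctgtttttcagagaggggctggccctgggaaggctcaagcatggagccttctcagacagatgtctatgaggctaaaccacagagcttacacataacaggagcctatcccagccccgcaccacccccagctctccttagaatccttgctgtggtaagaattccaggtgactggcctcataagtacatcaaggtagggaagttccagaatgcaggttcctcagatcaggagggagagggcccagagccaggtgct

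*Gstt4* lies in a row of theta class genes on chromosome 10, in the RefSeq order *Gstt3*, *Gstt1*, *Gstt4*, *Gstt2*, and its neighbours are described after their values were seen. *Gstt3* had log2 signals of -1.45, -1.32 and -1.31 in WT mice and -1.35, -0.50 and -0.50 in KO mice. KO2 and KO3 lay above all WT mice and KO1 among them, and the difference of 0.58 (standard error 0.25) did not pass (adjusted p = 0.271, limma). *Gstt1*, between *Gstt3* and *Gstt4*, had a difference of -0.17 (standard error 0.18). *Gstt2*, on the other side, had -0.16 (standard error 0.14) with marked spots kept. The differences of the neighbours were not tested against each other.

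**Figure D2:**
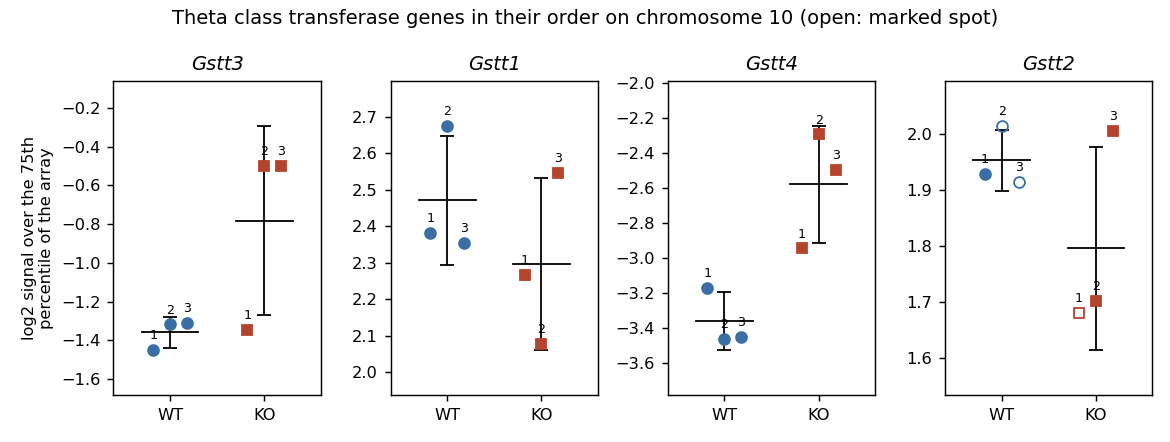
Log2 signal over the 75th percentile of the array (vertical axis, a separate range for each gene) of the theta class genes in chromosomal order, in WT mice (circles) and KO mice (squares), numbered by mouse. Open symbols are marked spots, lines are means and bars are SD. *Gstt4* is higher in all 3 KO mice and *Gstt3* in KO2 and KO3, while *Gstt1* and *Gstt2* overlap between the groups.

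The alpha and mu classes conjugate lipid aldehydes and xenobiotics to glutathione. *Gsta3* had log2 signals of -0.53, 0.55 and 0.07 in WT mice and -0.33, 1.0 and 1.08 in KO mice, a difference of 0.56 (standard error 0.44, adjusted p = 0.508, limma) within an overlap, and its other probe gave 0.60. Without KO1 it was 1.01 and passed, while without WT1, KO2 or KO3 it was 0.28, 0.35 or 0.31 and did not pass. *Gsta4*, an enzyme of lipid aldehyde removal that is named after its values were seen, had log2 signals of 3.89, 4.26 and 3.78 in WT mice and 3.64, 3.37 and 3.63 in KO mice with marked spots kept. The groups did not overlap, and the difference of -0.43 (standard error 0.17, adjusted p = 0.224, limma) passed but was -0.18 with quantile normalization, which did not. None of the mu class genes, 7 of which lie side by side on chromosome 3, passed in either treatment of marked spots. *Gstm1*, the brightest of those tested, had log2 signals of 3.68 and 3.95 in WT1 and WT2 and 3.47 and 3.86 in KO2 and KO3 (difference -0.15, standard error 0.23). The dim probe of *Gstm6* stood out in KO2 alone, at -3.11 against -4.75 to -4.48 in the other 5 mice, and its brighter probe, marked in all mice, had a difference of 0.12. Probes of such close relatives were not checked for cross-hybridization.

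The remaining classes gave small differences at the probes used. *Gsto1*, an omega class enzyme with thioltransferase activity and the brightest gene of its group among those tested, had log2 signals of 3.68, 3.99 and 3.79 in WT mice and 3.69, 3.60 and 3.92 in KO mice. Its difference was -0.08 (standard error 0.15), and 0.16 after quantile normalization. The other probe of *Gsto1*, marked in all mice, had a difference of 0.08. *Gsto2* lay lower in all KO mice (-0.20, -0.10 and -0.25 in WT mice against -0.35, -0.47 and -0.58), with a difference of -0.28 (standard error 0.13, adjusted p = 0.302, limma) that did not pass, while the -0.30 after quantile normalization did. Its other, dimmer probe had KO2 (-1.77) above all WT mice and KO3 at -6.25. The difference of that probe, -1.39 with marked spots kept, did not pass when probes were tested singly. *Mgst2*, a membrane-bound enzyme that can make leukotriene C4, had log2 signals of -1.36, -0.24 and -1.09 in WT mice and -1.13, -0.02 and -0.99 in KO mice, so the mice within a group differed more than the groups did (difference 0.19, standard error 0.39). *Gstp1*, *Gstp2*, *Gstk1* and *Gstz1* had log2 differences between -0.29 and -0.18 with marked spots kept, and between -0.07 and 0.06 with quantile normalization, none of which passed. The other probe of *Gstz1* had a difference of -0.44, which did not pass when probes were tested singly.

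**Figure D3:**
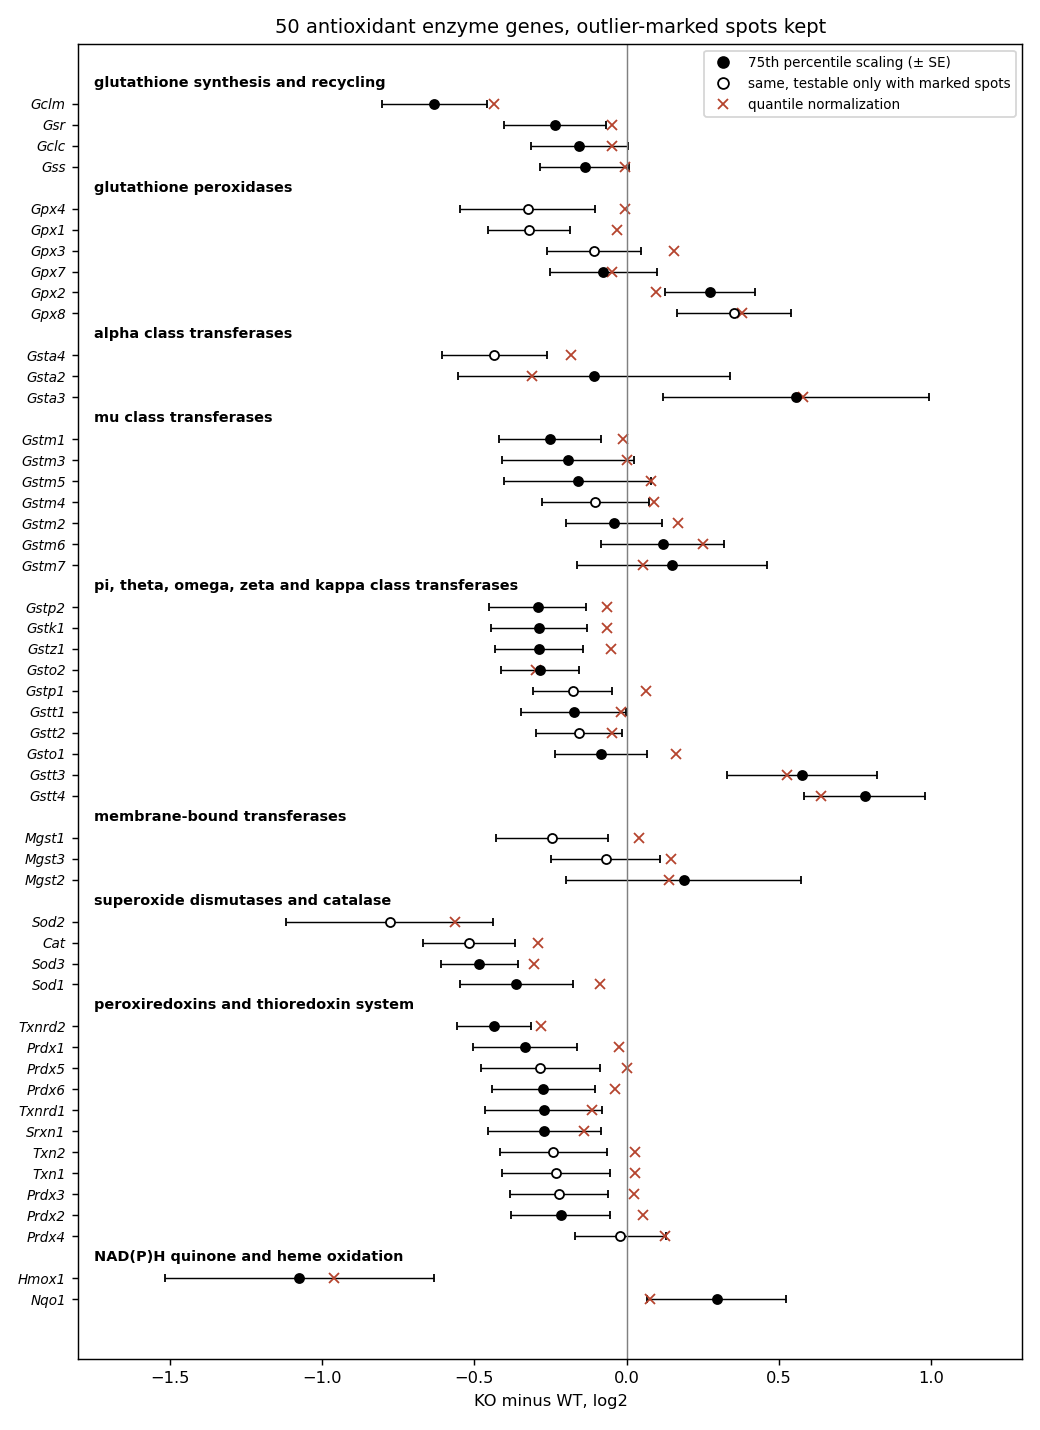
KO minus WT on the log2 scale (horizontal axis) for the 50 genes measured with marked spots kept, by role. Black symbols are the difference after scaling to the 75th percentile with its standard error, open ones the genes testable only with marked spots, and crosses the difference after quantile normalization. With the percentile scaling 41 of 50 genes lie below 0, with quantile normalization 26.

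Across the set, the lower values in KO mice went with brightness. Of the 33 tested genes 24 had a difference below 0, with a median of -0.15 beside -0.03 for all genes. All genes were split by signal into 4 bins of equal size. In the brightest bin the median difference of all genes was -0.21 and in the dimmest 0.17. Of the 33 genes, 21 were in the brightest bin, all 21 had a difference below 0, and their median was -0.23. After quantile normalization the brightest bin of all genes had a median of -0.04, 13 of the 21 genes were below 0 with a median of -0.03, and the median over the 33 genes was 0.01. Keeping marked spots placed 38 of 50 genes in the brightest bin, 37 of them below 0 with a median of -0.24, beside -0.24 for all genes of that bin. With quantile normalization 22 of the 38 were below 0, with a median of -0.01. The median of the 33 genes in the separate mice, marked spots left out, was 2.28, 2.62 and 2.15 in WT mice and 2.04, 1.99 and 2.30 in KO mice. KO3 thus lay above WT1 and WT3. Genes whose spot was marked on an array are missing from its median, so these medians do not cover the same genes.

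**Figure D4:**
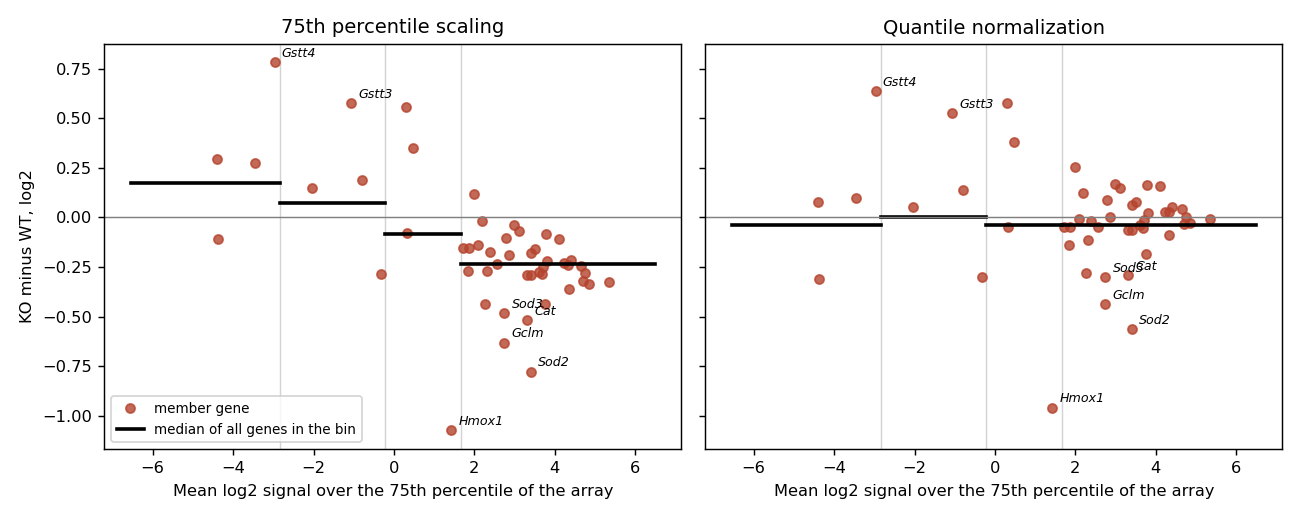
KO minus WT on the log2 scale (vertical axis) against the mean log2 signal over the 6 arrays (horizontal axis) for 50 genes, marked spots kept, after scaling to the 75th percentile (left) and after quantile normalization (right). Grey lines bound the 4 bins of all genes by signal and black bars are the median of all genes in each bin. The bars fall from 0.17 to -0.24 on the left and stay between -0.04 and 0.00 on the right.

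Of the 23 genes with an unmarked value in every mouse, 3 (*Sod3*, *Txnrd2*, *Gsto2*) had all KO mice below all WT mice and 2 (*Gstt4*, *Gpx2*) all KO mice above, beside 14.7% and 14.2% of all 11576 such genes. When marked spots were kept, 10 of 50 lay below and 3 above, beside 17.1% and 11.6%. In that setting 7 of 50 (14%) passed the unadjusted threshold as lower, the added ones being *Cat*, *Gsta4* and *Gpx1*, and 1 (2%) as higher, beside 11.1% and 9.47% of all 16110 genes. None was below 0.05 after adjustment, beside 0.472% of all genes. Quantile normalization gave 3 lower and 1 higher of the 33 genes, beside 10.2% and 7.99% of all genes, and 4 and 1 of the 50 with marked spots kept, beside 10.5% and 8.13%. The arrays also differed in their position on the slide: WT1 and WT2 were in one row and WT3 and all KO mice in the other. With the row as a block, where the estimate is that of the KO mice against WT3, 0 of 26 genes were lower and 1, *Gstt4*, higher, beside 2.41% and 6.29% of all 12351 genes that could be fitted. In that fit *Sod3* had a difference of -0.41 and *Txnrd2* of -0.40, beside -0.48 and -0.44 without the block, and neither passed. The smallest adjusted p was 0.533. When marked spots were kept under the block, 0 of 50 genes were lower and 2, *Gstt4* and *Gpx8*, higher, beside 3.08% and 5.46% of all genes.

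Other genes of glutathione and redox metabolism passed as often in the higher as in the lower direction when marked spots were left out. Of 76 listed, 58 were tested, and 36 of these had a difference below 0 and 22 above. Their median was -0.18, or -0.03 after quantile normalization. Past the threshold, 4 (6.9%) were lower and 4 (6.9%) higher, beside 8.82% and 10% of all genes. None was below 0.05 after adjustment (smallest adjusted p 0.134, limma). The 4 that were lower were *Pgd*, the NADPH-forming dehydrogenase of the pentose phosphate pathway (difference -0.78, standard error 0.30), the methionine sulfoxide reductases *Msrb2* (-0.62, standard error 0.19, WT3 dropped) and *Msra* (-0.36, standard error 0.12), and the leucine aminopeptidase *Lap3* (-0.44, standard error 0.13). *Pgd* had log2 signals of 3.58, 4.57 and 3.71 in WT mice and 2.98, 3.03 and 3.53 in KO mice, and its groups did not overlap. *Msrb2* had 3.11 and 3.48 in WT1 and WT2 and 2.63, 2.57 and 2.82 in KO mice. *Msra* had 2.65, 2.57 and 2.64 in WT mice and 2.18, 2.25 and 2.34 in KO mice, again without overlap. *Lap3* had 2.74, 2.96 and 2.79 against 2.33, 2.35 and 2.49. All 4 are bright genes, and after quantile normalization *Pgd* (-0.53), *Msrb2* (-0.40) and *Lap3* (-0.26) still passed while *Msra* (-0.20) did not. *Pgd* did not pass without WT2 (-0.47), KO1 (-0.68) or KO2 (-0.70), nor *Msra* without WT1 (-0.35), WT3 (-0.35) or KO1 (-0.33).

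The 4 that were higher were dimmer. *Cbr3*, a carbonyl reductase, had log2 signals of -1.08, -1.23 and -0.81 in WT mice and -0.50, -0.45 and -0.45 in KO mice, a difference of 0.57 (standard error 0.15, adjusted p = 0.134, limma). *Sesn3*, a sestrin, had -2.16, -2.03 and -1.88 against -1.50, -1.56 and -1.55, a difference of 0.49 (standard error 0.13). *Msrb3*, a methionine sulfoxide reductase of the endoplasmic reticulum, had 0.46, 0.36 and 0.52 against 0.78, 1.08 and 0.95, a difference of 0.49 (standard error 0.14). In all 3 the KO mice lay above the WT mice. *Ggt6*, of the gamma-glutamyltransferase family, was near the dim end, at -5.43, -5.13 and -5.53 against -4.23, -4.72 and -5.11, a difference of 0.68 (standard error 0.25). Its KO mice also lay above the WT mice, though KO3 (-5.11) was next to WT2 (-5.13). *Cbr3*, *Sesn3* and *Msrb3* passed after quantile normalization as well and *Ggt6* did not, nor did *Ggt6* pass without WT1 (0.65), WT3 (0.60), KO1 (0.45) or KO2 (0.70). With the slide row as a block none of the 43 that could be fitted passed, beside 2.41% lower and 6.29% higher among all genes. In that fit the differences of *Pgd* (-0.54), *Lap3* (-0.40), *Cbr3* (0.34), *Sesn3* (0.35) and *Msrb3* (0.42) were smaller in size than without the block. Those of *Msra* (-0.39) and *Ggt6* (0.85) were larger, and *Msrb2* could not be fitted.

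By list, 1 of 7 tested genes of NADPH supply was lower and none higher, 6 of the 7 having a difference below 0 (median -0.35, or -0.20 after quantile normalization). Of 14 glutaredoxins and other thiol reductants 2 were lower and 1 higher, of 9 genes of glutathione breakdown and precursors 1 and 1, of 8 genes of heme, iron and quinones 0 and 1, and of 9 regulators of NRF2 0 and 1. None of 6 transport genes and none of 5 other glutathione-using enzymes passed. Over all genes the shares were 8.82% lower and 10% higher, and the lists are too small to be set apart from them. All genes of the brightest bin had a median of -0.21, or -0.04 after quantile normalization, while *Mthfd2* and *Nnt* of the NADPH list were dimmer than that bin. When marked spots were kept, 10 of 71 genes were lower and 4 higher, beside 11.1% and 9.47% of all genes. With quantile normalization as well, 4 of the 71 were lower and 5 higher, beside 10.5% and 8.13%. The malic enzyme *Me1*, another source of NADPH, had the largest difference of the 71 before quantile normalization, -1.01 (standard error 0.29, adjusted p = 0.138, limma), and -0.80 after it. After it the glutaredoxin *Glrx* had the largest, 0.87. Before it *Glrx* had 0.79 (standard error 0.34), which did not pass, with WT2 (0.04) furthest from the other mice.

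With the percentile scaling and marked spots kept, the means of mast cell and white adipocyte markers also differed between the groups without overlap. The mean log2 signal of 6 of 10 mast cell markers was -1.33, -1.73 and -1.44 in WT mice and -0.32, -0.49 and -0.60 in KO mice, a difference of 1.03 (two-sided exact permutation test, p = 0.1, the smallest that 3 mice against 3 allow). Of the defining markers, *Kit*, *Cpa3*, *Mcpt4* and *Cma1* were higher in all KO mice, *Tpsb2* (difference 0.20) and *Hdc* (0.10) overlapped between the groups, and *Tpsab1*, *Ms4a2*, *Fcer1a* and *Mrgprb1* were not measured. The mean of 10 white adipocyte markers was -2.14, -2.12 and -2.22 against -2.0, -1.62 and -1.45, a difference of 0.47 (exact permutation p = 0.1). Of these 10, 3 passed as higher and 1 as lower, beside 9.47% and 11.1% of all genes in this setting. *Hoxc8* (-0.52) was lower in all KO mice and *Retn* differed by -0.01. That of 10 brown adipocyte markers was 2.70, 3.18 and 2.94 against 2.60, 2.31 and 3.00, a difference of -0.31 (exact permutation p = 0.3). The marker lists were compared only in this setting, not after quantile normalization or with the row as a block. In it, the mast cell and white adipocyte means lay in the signal range of the second dimmest bin. All genes of that bin had a median difference of 0.07. The brown adipocyte means lay in the range of the brightest bin, where that median was -0.24. The part of the markers in the values of the antioxidant genes was not tested. With the mean of the skeletal muscle markers as a covariate the counts among the 33 antioxidant genes were 4 lower and 1 higher, as without it. The share of all genes was not counted with that covariate.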

How the data were processed

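RNA of BAT from each of the 6 mice went onto a single-dye array, all on 1 slide. Spot intensity values deposited by the authors had been corrected for background in Agilent Feature Extraction, with no scaling between arrays (version 10.7 per the submitters' processing notes). The flags in these files (other values, 0 or 1) are also as deposited by the authors. Processed log2 values deposited by the authors as a separate table, whose normalization is not given in the sources used here, served as an alternative. Each array's 75th percentile over non-control spots was used to scale its processed intensities before log2. Non-uniform spots and population outliers, as marked by the software, were dropped. Testing a probe required at least 3 arrays well above background and at least 2 unmarked values per group. Of 56605 probes 33767 (59.7%) matched a gene through their RefSeq accession, and the brightest of a gene's testable probes was used. With marked spots kept, a gene can be represented by another probe. KO and WT were compared with limma 3.58.1 under R 4.3.3, two-sided, with an unadjusted threshold of 0.05, as in the paper's methods, and Benjamini-Hochberg adjustment over all genes. The steps were tested on simulated data. The number of arrays limits the precision. Named with values were all genes past the unadjusted threshold, the brightest and the most different of each role, *Nfe2l2*, *Keap1* and up to 6 listed redox genes in each direction; others were named after their values were seen. The genes and lists were chosen with earlier results of these data known. Marker lists not given in the text, of all adipocytes, erythroid cells, macrophages, lymphocytes, endothelium, fibroblasts, nerve and epithelium, differed by -0.22, 0.16, 0.17, 0.30, -0.02, -0.12, -0.26 and 0.27 (exact permutation p from 0.2 to 0.8). Promoter windows and miRNAs are from RefSeq on GRCm38.p6, and no coordinates of the array were used. No columns of other samples were present.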

Additional observations from a re-analysis of the deposited data

How the results depend on the processing

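The median difference was -0.15 over the 33 genes and lay between -0.22 (50 genes, marked spots kept) and 0.01 under the alternatives, which tested 26 to 50 genes, and of the values of single named genes under alternatives 409 kept their direction and their side of the threshold, 63 fell short of it, 3 newly passed and 11 changed sign. The 4 lower genes became 1 with normexp, 7 with marked spots kept, 0 with the slide row as a block, 0 with both, and 2 to 6 with an array left out (2 without WT1, WT2 or KO2, 6 without KO3). The 1 higher gene became 2 with normexp, with no filter on dim probes, with a filter of all 6 arrays, with trend and robust eBayes, and with marked spots kept and the row as a block, and 1 to 3 with an array left out (3 without KO1). The 24 genes below 0 became 15 with quantile normalization, 15 with normexp, 41 with marked spots kept, 15 with the row as a block, 37 with both and 16 to 23 with an array left out. Of the other redox genes, the 4 lower became 10 with marked spots kept, 0 with the row as a block, 2 with both and 2 to 6 with an array left out (2 without WT2 or KO1), and the 4 higher became 0 with the row as a block, 0 with both and 3 to 5 with an array left out. The difference changed sign for *Gsto1* with quantile normalization (0.16), normexp (0.22), the authors' processed values (0.16) and marked spots kept with quantile normalization (0.16), for *Gstm1* (0.0605) and *Gpx7* (0.0089) with quantile normalization, for *Mgst2* without WT1 (-0.04) or KO2 (-0.16, where leaving out other arrays gave up to 0.52), and for *Nfe2l2* with marked spots kept (-0.31), also with quantile normalization (-0.14) or the row as a block (-0.18). The causes were not tested. The share of all genes called was not counted for normexp, the filters on dim probes, trend and robust eBayes or the runs with an array left out. The counts in those settings therefore cannot be set against it. With an array left out, 27 to 32 antioxidant genes and 43 to 57 other redox genes could be tested. Marked spots kept together with quantile normalization or the row as a block were chosen after seeing the data. No paired analysis was possible because the labels give no numbers that pair the mice. Dim genes such as *Nqo1* and *Gsta2* lie low in the signal range, though the software called both well above background on all 6 arrays, and 3 genes were not measured.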
